A study of Mus musculus with 24 samples.

Results

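The 9 adhesion G protein-coupled receptor genes described here were Adgrd1, Adgrl1, Adgrl2, Adgrl3, Adgrb1, Adgrb2, Adgrb3, Adgrg1 and Adgrg2. They were chosen by symbol, with their levels and genotype differences in these data already known, so their difference between genotypes is given as a description with no p-value. They are 9 of 47643 gene identifiers in the count files and 9 of the 30 protein-coding genes of the family, all of which were among the identifiers.

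RNA-seq was performed on GFP-positive cells sorted from L4 dorsal root ganglia (DRG) of 4 control and 4 Nav-Tsc2 mice, 2 male (replicates 1 and 2) and 2 female (replicates 3 and 4) of each genotype. Each mouse gave 3 libraries of 100 cells, and these were summed, which made the mouse the replicate. Control mice carried Nav1.8-Cre, 1 floxed and 1 wild-type Tsc2 allele and a Rosa26 ZsGreen reporter. Nav-Tsc2 mice carried the same Cre and reporter with 1 floxed and 1 null Tsc2 allele. Cre under the Nav1.8 (Scn10a) gene recombines mainly in nociceptors, so those cells kept 1 Tsc2 allele in control mice and none in Nav-Tsc2 mice. All mice were of mixed C57BL/6 and AJ background and 8 to 9 weeks old, and every ganglion came from the side opposite a sciatic nerve that had been crushed 3 d before.

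Adhesion receptors pair a long extracellular region with a G protein-coupled membrane domain. In most of them the extracellular region cuts itself close to the membrane, and a short buried peptide behind the cut can act as a tethered agonist when the outer part is pulled or released. Latrophilins (Adgrl genes) bind teneurins, FLRT proteins and neurexins on neighbouring cells and are known for their work at synapses, whereas the Adgrb receptors bind C1q-like proteins and reticulon-4 receptors.

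Control libraries held 12210899 to 28641787 counts on genes and Nav-Tsc2 libraries 8339220 to 34228180. Tsc2 itself had 20.9 ± 5.18 normalized CPM (the count scaled to a common library total, mean ± SD, n = 4 mice) in control and 8.87 ± 1.52 in Nav-Tsc2 mice and was lower in Nav-Tsc2 mice (log2 fold change -1.24 with a standard error of 0.22, adjusted p = 0.00400 in edgeR's quasi-likelihood test). Scn10a, which marks the sorted neurons, had 670 ± 138 CPM in control and 608 ± 35.1 in Nav-Tsc2 mice, and its difference was not called. The glial gene Fabp7 (211 ± 48.5 and 195 ± 40.5 CPM) was present in both genotypes, so the sort did not hold neuronal RNA alone. In such bulk samples, fewer cells of a type and less RNA per cell cannot be told apart.

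The regions just upstream of 2 receptor genes are shown first, Adgrl1 because it was lower in Nav-Tsc2 mice and Adgrb3 because its levels in the genotypes overlapped. RefSeq promoters (GRCm38.p6) matched 7 of the 9 genes, with 10 start sites. Adgrb1 and Adgrd1 were not matched. Each sequence below is the 250 bases before the start, 5′ to 3′ on the strand of the gene, with matches to the GC box (GGGCGG, or CCGCCC when it lies on the other strand) in capitals. The first lies at chr8:83899848-83900097 on the plus strand and the second at chr1:25829708-25829957 on the minus strand.
Adgrl1: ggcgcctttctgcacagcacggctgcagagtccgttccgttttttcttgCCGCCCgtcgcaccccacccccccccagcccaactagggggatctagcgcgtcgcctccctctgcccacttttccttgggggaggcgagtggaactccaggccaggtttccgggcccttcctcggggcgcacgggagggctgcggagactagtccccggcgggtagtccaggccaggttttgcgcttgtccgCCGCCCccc
Adgrb3: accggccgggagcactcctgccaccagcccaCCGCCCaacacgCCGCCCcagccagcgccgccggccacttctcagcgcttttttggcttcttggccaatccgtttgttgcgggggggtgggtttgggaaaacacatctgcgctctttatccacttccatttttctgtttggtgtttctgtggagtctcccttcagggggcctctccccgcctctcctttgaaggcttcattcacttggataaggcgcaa
Both windows held 2 GC-box matches. The windows of Adgrg1 and Adgrl2 held none, and each window of the other matched genes held at least 1. A link between these matches and the genotype differences was not tested. Among 32851 promoter windows of this length 32.7% held the motif on either strand. The E-box CACGTG (6.02% of promoters) and the cyclic AMP response element TGACGTCA (1.55%) were not found in the 10 windows of the receptor genes, so no match overlapped another motif.

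A gene was called when its adjusted p was under 0.05 and its level differed by more than 0.5 on the log2 scale, in a fit of all 17178 genes that passed the filter on low counts. By this rule Adgrl1 and Adgrl3 were lower and Adgrd1 was higher in Nav-Tsc2 mice, Adgrl2, Adgrb1, Adgrb3, Adgrg1 and Adgrg2 were not called, and Adgrb2 did not pass the filter. Across all genes tested 17.1% were called, 8.00% lower and 9.12% higher. The genotypes did not overlap in 4 of the 8 receptors tested (Adgrl1, Adgrl3, Adgrb1 and Adgrd1), against 26.9% of all genes. The median log2 fold change was -0.32 over the 8 receptors and 0.01 over all genes. Because the receptors were selected on this contrast, nothing is read from these counts. Where a call of a receptor is said below to be kept or lost in other fits, this describes only its dependence on the processing and on single mice.

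**Figure D1:**
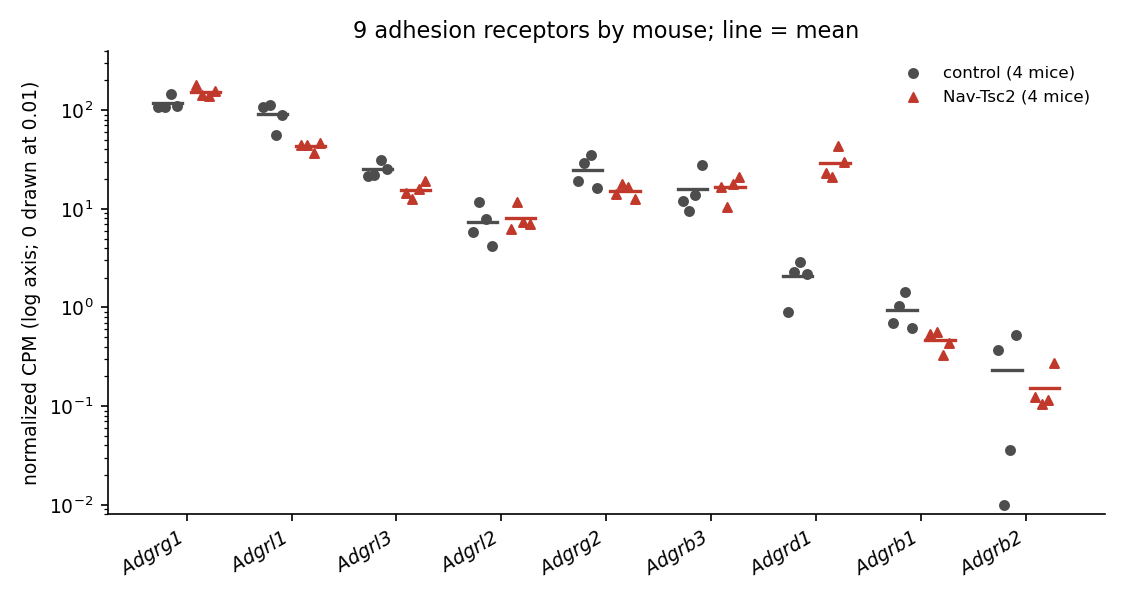
Normalized CPM on a log axis of the 9 receptors in each of 4 control (circles) and 4 Nav-Tsc2 (triangles) mice, with lines at the means and a value of 0 drawn at 0.01. Adgrd1 lies between 0.898 and 2.88 CPM in control and between 20.8 and 43.5 CPM in Nav-Tsc2 mice, and Adgrl1 and Adgrl3 lie lower in every Nav-Tsc2 mouse than in any control mouse.

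Adgrl1 encodes latrophilin 1, the receptor through which a component of black widow venom acts on nerve endings, and lies on chromosome 8 of GRCm38 from 83900105 to 83941954. It had 107, 113, 56.2 and 88.6 CPM in control mice 1 to 4 and 44.3, 44.7, 36.4 and 46.7 CPM in Nav-Tsc2 mice 1 to 4. Every Nav-Tsc2 mouse was below every control mouse, and control mouse 3 was the lowest control. The means were 91.2 ± 25.6 and 43.0 ± 4.55 CPM (SD, n = 4 mice each), a log2 fold change of -1.08 (standard error 0.20). Of the exon sequence of Adgrl1, 15.6% overlaps predicted genes on the other strand, and whether the counting used the strand was not given in the sources used here.

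Adgrl3 encodes latrophilin 3, which binds FLRT3 at synapses, and lies on chromosome 5 from 81020138 to 81825133. It had 21.5, 22.2, 31.5 and 25.6 CPM in the control mice and 14.4, 12.5, 15.9 and 19.1 CPM in the Nav-Tsc2 mice. Again no Nav-Tsc2 mouse reached a control mouse, but the gap between the groups was narrow. The means were 25.2 ± 4.60 and 15.5 ± 2.78 CPM, a log2 fold change of -0.70 (standard error 0.18). The call was lost without Nav-Tsc2 mouse 1 (log2 fold change -0.67) or without Nav-Tsc2 mouse 2 (-0.62), and the log2 fold change lay between -0.82 and -0.58 over 15 other fits. An overlapping gene on the other strand covers 8.91% of the exon sequence.

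Adgrl2, the remaining latrophilin gene of the set, had 5.78, 11.9, 7.85 and 4.16 CPM in control and 6.23, 11.6, 7.32 and 6.97 CPM in Nav-Tsc2 mice. The genotypes overlapped over almost the whole range, and replicate 2 was the highest of both. Its log2 fold change was 0.12 (standard error 0.34), and it was not called in any of 15 other fits. Compared per kb of exon, the 3 latrophilin genes together had 12.6 ± 2.80 CPM per kb in control and 6.45 ± 0.586 in Nav-Tsc2 mice. Adgrl1 made up 83.5% ± 6.65 of this sum in control and 77.6% ± 2.25 in Nav-Tsc2 mice, ranges that overlapped.

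The binding partners of the receptors were a list of 21 genes, of which 18 were tested, 5 were called lower and 3 higher (44.4% of those tested, against 17.1% of all genes). Their median log2 fold change was -0.45, against 0.01 over all genes. The list was drawn up with earlier results of these data known, and C1ql3, among those called higher, passed the filter only through the Nav-Tsc2 mice.

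The FLRT genes encode leucine-rich transmembrane proteins that bind latrophilins across the cell gap. Flrt3 rose from 42.6, 29.5, 39.4 and 32.1 CPM in the control mice to 242, 212, 216 and 248 CPM in the Nav-Tsc2 mice. The ranges were far apart, and the log2 fold change was 2.67 (standard error 0.13 and edgeR adjusted p = 6.29e-06). Flrt2 also rose, from 8.68 ± 0.898 to 18.3 ± 0.800 CPM (log2 fold change 1.08 with a standard error of 0.14, edgeR adjusted p = 0.000769). Flrt1 fell, from 32.3 ± 10.1 to 6.80 ± 4.52 CPM (log2 fold change -2.25 with a standard error of 0.45, edgeR adjusted p = 0.00736). All 3 calls were kept in each of 15 other fits. The 3 FLRT genes therefore moved in opposite directions, and Flrt3 made up 53.1% ± 9.59 of their summed CPM per kb in control and 93.0% ± 1.45 in Nav-Tsc2 mice. Their sum was 14.0 ± 1.74 CPM per kb in control and 50.7 ± 3.96 in Nav-Tsc2 mice.

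Teneurins are large transmembrane proteins whose extracellular part is a high-affinity ligand of latrophilins. Tenm2 had 16.3, 14.0, 6.93 and 25.8 CPM in the control mice and 1.91, 2.90, 2.53 and 3.28 CPM in the Nav-Tsc2 mice. It fell with no overlap (log2 fold change -2.57 with a standard error of 0.38, edgeR adjusted p = 0.00159), a call that was lost when the 24 libraries were fitted with the mouse as a random effect (adjusted p = 0.0501, limma). Tenm3 fell from 8.80 ± 1.94 to 4.69 ± 0.670 CPM (log2 fold change -0.91 with a standard error of 0.23, edgeR adjusted p = 0.0213) but lost its call in 5 of 15 other fits. These were the fit with a replicate block, a term for the replicate number that mice of both genotypes share (adjusted p = 0.0739 from edgeR), and those without control mouse 1 or without Nav-Tsc2 mouse 1, 2 or 3 (adjusted p = 0.0569 to 0.0626 from edgeR). Tenm1 (18.5 ± 5.93 and 11.6 ± 0.704 CPM) and Tenm4 (13.9 ± 4.23 and 13.6 ± 0.807 CPM) were not called. Tenm1, with a log2 fold change of -0.67 (standard error 0.23), was called lower with DESeq2 (adjusted p = 0.0266) and without control mouse 3 (edgeR adjusted p = 0.00661). Their summed level was 3.93 ± 0.957 CPM per kb in control and 1.99 ± 0.110 in Nav-Tsc2 mice.

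Neurexins are presynaptic organizers that latrophilin 1 also binds. Nrxn3 had 220.4, 167, 159.6 and 179 CPM in the control mice and 53.7, 52.0, 93.8 and 75.2 CPM in the Nav-Tsc2 mice. It fell with no overlap, from a mean of 182 ± 27.1 to 68.7 ± 19.8 CPM (log2 fold change -1.40 with a standard error of 0.20, edgeR adjusted p = 0.00120). Nrxn2, with 12.9 ± 0.617 and 10.5 ± 1.66 CPM, was not called. The fall of Nrxn3 was kept in each of 15 other fits.

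**Figure D2:**
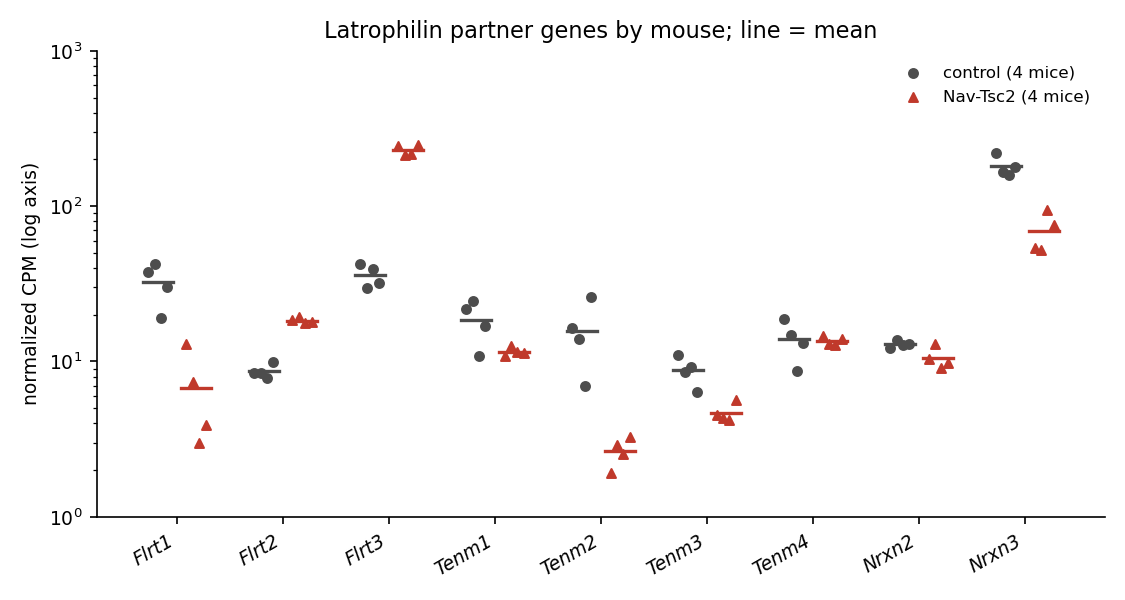
Normalized CPM on a log axis of FLRT, teneurin and neurexin genes in each of 4 control (circles) and 4 Nav-Tsc2 (triangles) mice, with lines at the means. Flrt3 and Flrt2 lie higher in every Nav-Tsc2 mouse, and Flrt1, Tenm2, Tenm3 and Nrxn3 lie lower.

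The Adgrb genes encode the brain-specific angiogenesis inhibitors. Adgrb3, whose ligands include C1q-like proteins, had 11.9, 9.56, 13.9 and 28.1 CPM in control and 16.7, 10.5, 18.0 and 21.0 CPM in Nav-Tsc2 mice. The genotypes overlapped, with the highest value in control mouse 4, and the log2 fold change was 0.06 (standard error 0.34). Adgrb1, which can recruit the ELMO and DOCK proteins in the uptake of dying cells, had 0.695, 1.04, 1.45 and 0.623 CPM in control and 0.535, 0.566, 0.327 and 0.440 CPM in Nav-Tsc2 mice. No Nav-Tsc2 mouse reached a control mouse, but the log2 fold change of -1.02 had a standard error of 0.51 and the gene was not called. These values rest on 31 to 80 counts per control mouse and 20 to 32 per Nav-Tsc2 mouse. Adgrb2 had between 0 and 26 counts per mouse, or 0.373, 0, 0.0362 and 0.522 CPM in control and 0.123, 0.106, 0.114 and 0.271 CPM in Nav-Tsc2 mice, and did not pass the filter. Without the filter its log2 fold change was -0.59 with a standard error of 1.24, and it was not called.

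Among the partners of Adgrb receptors, the secreted protein gene C1ql3 had 0, 0, 1 and 0 counts in the control mice and 33, 87, 69 and 83 counts in the Nav-Tsc2 mice. It was called higher, but no p-value or fold change is given. The control group holds a single count, and the gene passed the filter only through the Nav-Tsc2 mice. Genes on the other strand overlap 64.2% of its exon sequence. C1ql4, Rtn4r and Rtn4rl1 were not called, although Rtn4rl1 was called lower with DESeq2 (adjusted p = 0.0374) and without control mouse 1 (edgeR adjusted p = 0.0397), and C1ql1, C1ql2 and Rtn4rl2 did not pass the filter.

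Adgrg1, also called GPR56, is a receptor of collagen III and transglutaminase 2 and is known for its roles in cortical development and myelinating glia. It lies on chromosome 8 from 94974751 to 95014217. It had 108, 109, 147 and 110.4 CPM in control and 179, 143, 138 and 155 CPM in Nav-Tsc2 mice. Control mouse 3 stood above the other controls and within the Nav-Tsc2 range, and the other 3 controls were below every Nav-Tsc2 mouse. The log2 fold change was 0.37 (standard error 0.13), under the limit of 0.5, and Adgrg1 was not called in any of 15 other fits. Its ligand genes Col3a1 (2.77 ± 2.14 and 6.43 ± 2.51 CPM) and Tgm2 (0.122 ± 0.222 and 0.856 ± 0.595 CPM) were not called, and each was called higher in 1 of 15 other fits.

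Adgrg2, also called GPR64 and best known from the epididymis, lies on the X chromosome from 160390690 to 160498070. It had 19.3, 29.1, 35.3 and 16.1 CPM in control and 14.2, 17.8, 16.6 and 12.5 CPM in Nav-Tsc2 mice. Control mouse 4 lay within the Nav-Tsc2 range, and the other 3 controls were above it. The means were 24.9 ± 8.82 and 15.3 ± 2.38 CPM, a log2 fold change of -0.71 (standard error 0.25). Adgrg2 was not called in the test used here, but it was called lower with DESeq2, with the replicate block and without control mouse 4, at log2 fold changes of -0.72, -0.65 and -0.87.

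Adgrd1 encodes GPR133, which couples to the stimulatory G protein and raises cyclic AMP, and lies on chromosome 5 from 129096750 to 129204599. It had 0.898, 2.29, 2.88 and 2.21 CPM in control mice 1 to 4 and 23.3, 20.8, 43.5 and 29.5 CPM in Nav-Tsc2 mice 1 to 4. The lowest Nav-Tsc2 mouse was several times higher than the highest control mouse. The means were 2.07 ± 0.835 and 29.3 ± 10.2 CPM, a ratio of 14.1 and a log2 fold change of 3.82 (standard error 0.38). In 15 other fits the log2 fold change lay between 3.57 and 4.20 and the call was kept. The control values rest on 53 to 159 counts per mouse and those of Nav-Tsc2 mice on 1134 to 2662. No exon of another gene overlaps Adgrd1. None of its 50-base stretches is shared with another gene of the family, and the lack of shared stretches also holds for the other 8 receptors.

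Proteins that bind GPR133 include Plxdc2 and Ptk7. Plxdc2 had 17.5, 26.1, 17.9 and 12.7 CPM in control and 9.24, 8.05, 4.85 and 14.2 CPM in Nav-Tsc2 mice, a log2 fold change of -1.03 (standard error 0.33 and edgeR adjusted p = 0.0508). It therefore missed the threshold in the test used here, and it was called lower in 6 of 15 other fits, among them DESeq2 (adjusted p = 0.0104) and edgeR without control mouse 4 (0.0410) or Nav-Tsc2 mouse 4 (0.0232). Ptk7 (2.37 ± 1.94 and 1.42 ± 0.539 CPM) was not called.

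The higher level of Adgrd1 was seen in every library. Over the 12 control libraries its CPM had a lowest value of 0.285, a median of 1.82 and a highest value of 4.79, and over the 12 Nav-Tsc2 libraries these were 13.4, 25.6 and 69.5. No library of 1 genotype overlapped the other, and all 24 held at least 1 count. For Adgrl1 the libraries overlapped, with 27.1, 90.6 and 141 CPM in control and 27.7, 43.5 and 55.3 CPM in Nav-Tsc2 mice. The lowest Adgrl1 library of all was library A of control mouse 3. Libraries of a mouse are technical samples of its cells, so they were tested only in the fit with the mouse as a random effect.

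**Figure D3:**
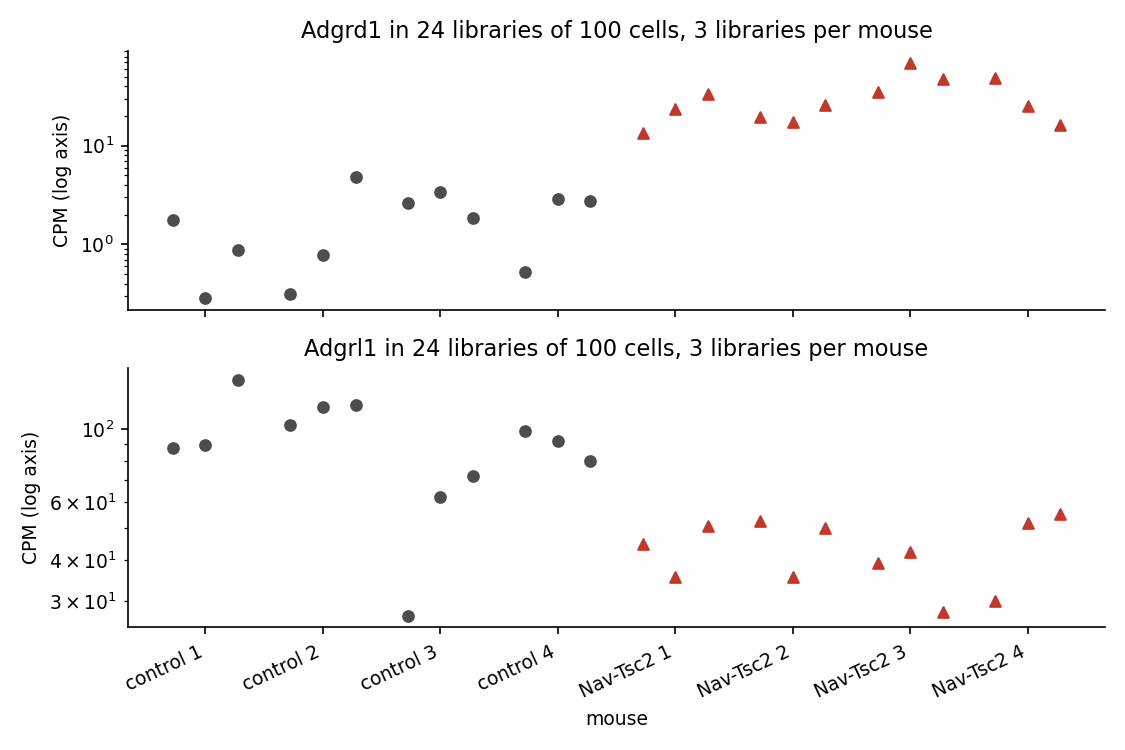
CPM on a log axis of Adgrd1 (top) and Adgrl1 (bottom) in the 24 libraries of 100 cells, grouped by mouse, with control libraries as circles and Nav-Tsc2 libraries as triangles. The Adgrd1 libraries are separate, with 4.79 CPM the highest in control and 13.4 CPM the lowest in Nav-Tsc2 mice, whereas 1 control library of Adgrl1, at 27.1 CPM, lies below all Nav-Tsc2 libraries.

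Genes of other cell types were measured beside these values. The summed level of 6 endothelial genes was 0.326 to 1.83 CPM in control and 5.81 to 15.5 CPM in Nav-Tsc2 mice. The 2 tested, Flt1 and Kdr, were called higher. Both passed the filter on low counts only through the Nav-Tsc2 mice, as did the macrophage gene Cx3cr1 below. Nothing is therefore read from these calls. Flt1 alone had 0 to 0.0602 CPM in control and 3.67 to 12.7 CPM in Nav-Tsc2 mice, most of the sum in the latter. Kdr had 0.120 to 0.852 CPM in control and 0.762 to 2.64 CPM in Nav-Tsc2 mice. The endothelial genes Cdh5, Cldn5 and Tie1 were under 1 CPM in every mouse, and Pecam1 overlapped (0 to 1.59 and 0 to 0.829 CPM). Among 6 macrophage genes, with a summed level of 2.64 to 8.21 CPM in control and 8.48 to 23.7 CPM in Nav-Tsc2 mice, 1 of 5 tested was called higher, Cx3cr1, 2 were called by DESeq2 and 2 had an unadjusted p under 0.05 in edgeR. Cx3cr1 (0.0181 to 0.0602 and 2.82 to 9.33 CPM), Cd68 (0.0362 to 1.02 and 1.54 to 2.65 CPM) and Csf1r (0.0189 to 2.19 and 2.22 to 4.94 CPM) were higher in every Nav-Tsc2 mouse than in any control mouse. Aif1 (0.0181 to 1.82 and 0.905 to 1.46 CPM) and Lyz2 (0.0379 to 7.54 and 0.720 to 6.35 CPM) overlapped between genotypes, and C1qa was under 1 CPM in every mouse. Of the 10 glial genes (485 to 733 and 436 to 663 CPM summed) and the 5 fibroblast genes (68.2 to 235 and 112 to 193 CPM summed), 0 were called by edgeR (1 glial and 0 fibroblast genes at an unadjusted p under 0.05, 1 and 0 called by DESeq2, the former being the myelin gene Mbp). In the 6 Nav-Tsc2 libraries with the lower endothelial sum the median of Adgrd1 was 24.3 CPM, and in the other 6 it was 29.5 CPM. Split by the macrophage sum, the medians were 28.3 and 25.6 CPM, while the libraries with the lowest and the highest macrophage sum had 13.4 and 48.96 CPM. These 12 libraries came from 4 mice.

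Neuronal subtype genes also moved with genotype. Of 4 nociceptor genes 2 fell, Calca among them, and 1 rose, Prph. Of 3 itch genes 3 fell (25.6 to 227 CPM summed in control and 0.655 to 11.9 in Nav-Tsc2 mice), and of 3 genes of low-threshold C fibres 1 rose, Th (25.1 to 268 and 154 to 1482 CPM summed). Of 4 nonpeptidergic genes 0 were called by edgeR (218 to 894 and 1020 to 1185 CPM summed), with 1 at an unadjusted p under 0.05 and 0 called by DESeq2. Mrgprd was nevertheless higher in every Nav-Tsc2 mouse than in any control mouse (21.9 to 325 CPM in control and 486 to 598 in Nav-Tsc2 mice), whereas P2rx3, Gfra2 and Lpar3 overlapped. Of 4 large-fibre genes 0 were called by edgeR, with 1 at an unadjusted p under 0.05 and 1, Pvalb, called higher by DESeq2. Over the 12 Nav-Tsc2 libraries, which share the depth and mouse of their source, Adgrd1 had r = -0.64 with the sum of the low-threshold C-fibre genes and -0.20 with that of the nonpeptidergic genes on the log2 scale. The median of Adgrd1 was 41.1 CPM in the 6 of these libraries with the lower C-fibre sum and 18.5 CPM in the other 6. Mouse means were not removed. Nav-Tsc2 mouse 3 had both the lowest C-fibre sum (154 CPM, against 1393, 1032 and 1482 in mice 1, 2 and 4) and the highest Adgrd1 (43.5 CPM). In the 12 control libraries the values of r were 0.34 and 0.62, so both values had the opposite sign there. With the endothelial and macrophage sums the values were -0.03 and 0.50 in Nav-Tsc2 libraries and -0.42 and 0.26 in control libraries. The part of these cell types in the receptor differences was not tested.

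Levels were compared between genes per kb of exon. In control mice the order of the means was Adgrg1 (21.9 CPM per kb), Adgrl1 (10.6), Adgrg2 (4.73), Adgrl3 (1.42), Adgrb3 (0.855), Adgrl2 (0.522), Adgrd1 (0.249), Adgrb1 (0.132) and Adgrb2 (0.0359). Adgrg1 was above Adgrl1, Adgrg2 above Adgrl3 and Adgrb1 above Adgrb2 with no overlap between mice, and the ranges of the other neighbours overlapped. In Nav-Tsc2 mice Adgrd1 moved from the seventh place to the third. The order there was Adgrg1 (28.3 CPM per kb), Adgrl1 (5.01), Adgrd1 (3.52), Adgrg2 (2.89), Adgrb3 (0.892), Adgrl3 (0.872), Adgrl2 (0.566), Adgrb1 (0.0647) and Adgrb2 (0.0237). Adgrd1 overlapped both Adgrl1 and Adgrg2 in these mice, as did Adgrb3 with Adgrl3 and Adgrl3 with Adgrl2.

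The summed level of the 9 receptors was near the same in both genotypes, at 40.4 ± 3.05 CPM per kb in control and 42.2 ± 2.79 in Nav-Tsc2 mice, while its make-up differed. Adgrg1 made up 54.0% ± 5.81 of the sum in control and 67.0% ± 3.75 in Nav-Tsc2 mice. The share of Adgrl1 was 26.6% ± 8.08 and 11.9% ± 1.25, and that of Adgrd1 was 0.608% ± 0.225 and 8.40% ± 3.17. Shares of 1 sum move against each other by construction.

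**Figure D4:**
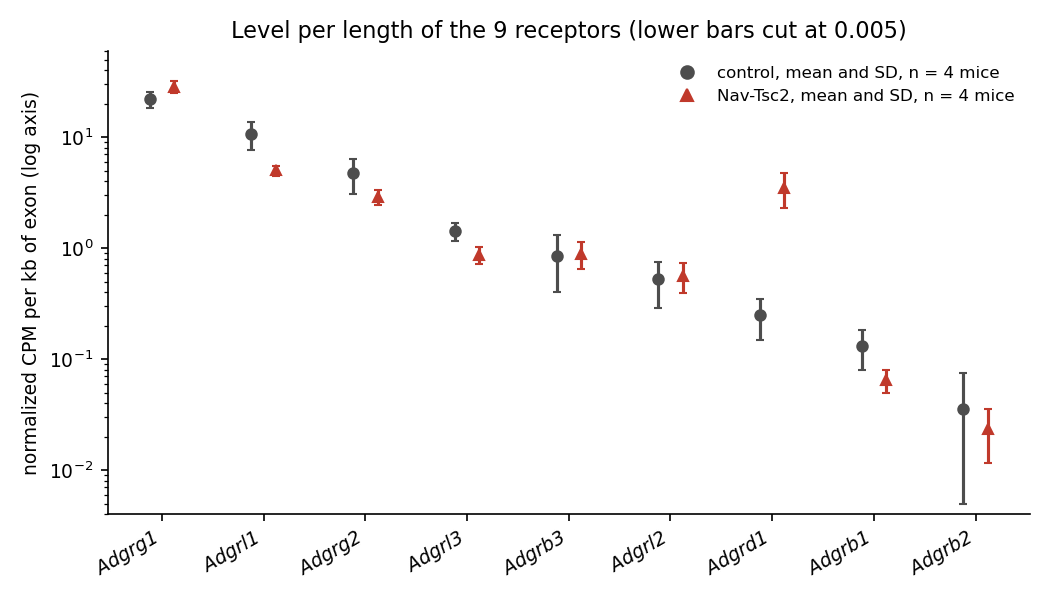
Level per length (CPM per kb of exon, log axis, mean and SD of 4 mice) of the 9 receptors in control (circles) and Nav-Tsc2 (triangles) mice, ordered by the control mean. Adgrg1 is the highest in both, at 21.9 and 28.3 CPM per kb, and Adgrd1 goes from 0.249 to 3.52 CPM per kb.

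The other 21 genes of the family give the setting of these values. Of these 12 were tested, and 9 did not pass the filter on low counts. Among those tested 2 were called lower and 1 higher (25%, against 17.1% of all genes). Adgra1, an orphan receptor of neurons, fell from 8.81, 11.8, 15.8 and 11.4 CPM in the control mice to 1.91, 2.51, 2.92 and 2.27 CPM in the Nav-Tsc2 mice. There was no overlap, and the log2 fold change was -2.31 (standard error 0.25 and edgeR adjusted p = 0.000323), a call kept in 15 of 15 other fits. Celsr2, a cadherin-like receptor of planar cell polarity, fell from 22.8 ± 7.24 to 13.6 ± 1.16 CPM (log2 fold change -0.75 with a standard error of 0.22, edgeR adjusted p = 0.0385). Control mouse 3, at 14.6 CPM, lay within the Nav-Tsc2 range, and 8 of 15 other fits lost the call. The replicate block gave an adjusted p of 0.0696 (edgeR), and leaving out any mouse but control mouse 3 gave 0.0617 to 0.109.

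Adgrl4, known from endothelial cells, had 0.237, 0.0189, 0.724 and 0 CPM in control and 2.98, 3.73, 5.72 and 6.53 CPM in Nav-Tsc2 mice. It was called higher (log2 fold change 4.25 with a standard error of 1.06) on 0 to 40 counts per control mouse. Adgrl4 passed the filter on low counts only through the Nav-Tsc2 mice, so no p-value is given. The call was lost without Nav-Tsc2 mouse 4. The endothelial sums given above, which rested mostly on Flt1 in Nav-Tsc2 mice, moved in the same direction. Pecam1 did not, and the part of endothelial cells in the value was not tested. Adgre1, which encodes the macrophage antigen F4/80, had a count in only 1 control mouse and 2 Nav-Tsc2 mice. Adgra3, at 8.66 ± 3.93 and 14.2 ± 3.17 CPM, was not called. With the 9 receptors included, 4 of the 20 family genes tested were lower and 2 higher (30% in all, against 17.1% of all genes), and their median log2 fold change was 0.02. Of these calls 2 lower and 1 higher belong to the 9 receptors, which were selected on this contrast, so nothing is read from this count.

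**Figure D5:**
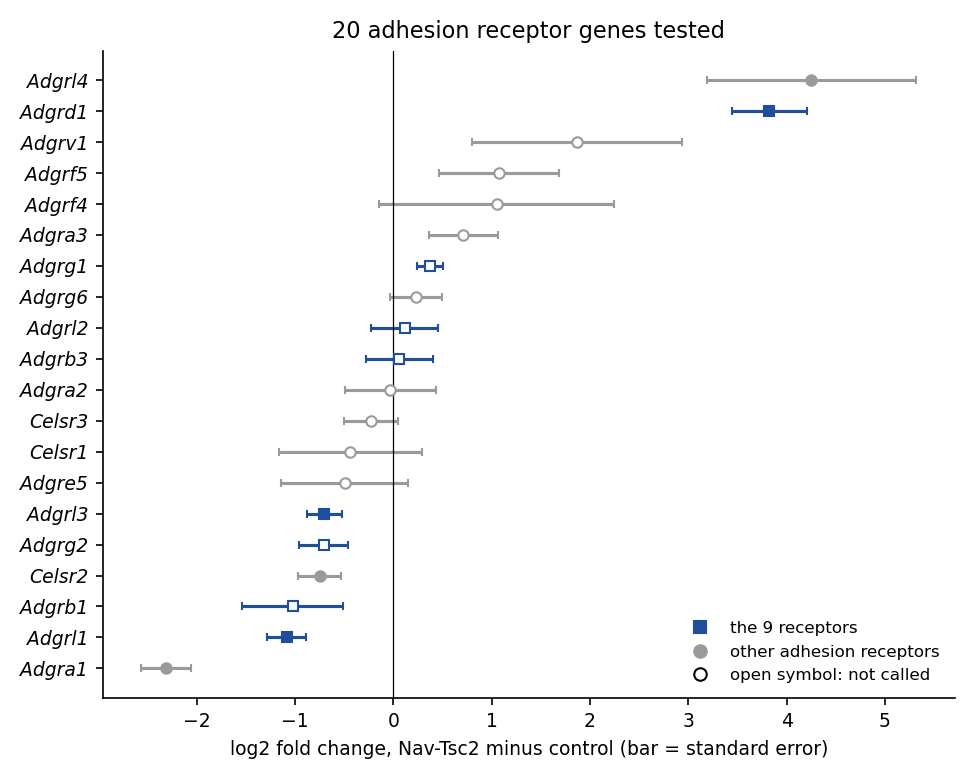
Log2 fold change (Nav-Tsc2 minus control, bars show the standard error) of the 20 adhesion receptor genes tested, with 8 of the 9 receptors as squares and other family genes as circles, filled where called. Adgrl4 (4.25) and Adgrd1 (3.82) lie at the top and Adgra1 (-2.31) at the bottom, and most genes lie nearer to 0.

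Of 20 genes that carry signals from adhesion receptors (G protein subunits, ELMO and DOCK proteins, guanine nucleotide exchange factors and arrestins), all were tested, 1 was called lower and 1 higher (10% in all, against 17.1% of all genes). Their median log2 fold change was 0.07. Arrb1, which encodes the adaptor β-arrestin 1, rose from 108, 122, 100.4 and 109 CPM in the control mice to 176, 176, 174 and 165 CPM in the Nav-Tsc2 mice. No values overlapped, and the log2 fold change was 0.65 (standard error 0.08 and edgeR adjusted p = 0.000667). Gnai1, an inhibitory G protein subunit, fell from 51.6 ± 7.62 to 33.4 ± 7.69 CPM (log2 fold change -0.63 with a standard error of 0.18, edgeR adjusted p = 0.0347), although the groups overlapped and 7 of 15 other fits lost the call. The replicate block gave an adjusted p of 0.0887 (edgeR), and leaving out any mouse but control mouse 3 or Nav-Tsc2 mouse 3 gave 0.0681 to 0.0959. The genes of the list with the highest level per length in control, Gnaq (165 CPM per kb), Gna14 (66.0) and Gnao1 (57.6), were not called. Arhgef12 and Gnai3 passed the adjusted p (0.00297 and 0.0372 from edgeR) but not the fold limit, with log2 fold changes of 0.48 and 0.32, and Arhgef12 was called higher in 2 of 15 other fits.

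The sexes were compared over all 8 mice with genotype in the model, a contrast that had no part in choosing the receptors. Of the 8 receptors tested 0 were called by edgeR, and 3 had an unadjusted p under 0.05. Across all genes 0.0291% were called and 6.66% had an unadjusted p under 0.05. Adgrb3 was 0.75 higher in females on the log2 scale (standard error 0.26 and edgeR adjusted p = 0.698), with means of 12.2 CPM in males and 20.3 CPM in females. Adgrl3 was 0.38 higher (standard error 0.13 and edgeR adjusted p = 0.698) and Adgrd1 0.70 higher (standard error 0.28 and edgeR adjusted p = 0.724). None of these passed the adjustment, and replicates 1 and 2 are all male, so sex cannot be told apart from anything else that the replicate numbers share. The X-linked Adgrg2 had means of 20.1 CPM in both sexes. In the test of sex by genotype 0 of 8 receptors were called and 0 had an unadjusted p under 0.05 from edgeR, with adjusted p-values from 0.684 to 0.998, and 0.00582% of all genes were called, with 9.22% at an unadjusted p under 0.05. Counts of 0 were also found with DESeq2 and in the other alternatives of both tests, 11 each.

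The 6 receptors with a mean of at least 10 CPM over all mice were compared with 8450 genes over the 24 libraries after the genotype means had been subtracted. The most alike genes were Zeb1 for Adgrd1 (Pearson's r = 0.77), BC030867 for Adgrl1 (0.85), Snhg14 for Adgrl3 (0.73), Oxa1l for Adgrb3 (0.75), Mfsd1 for Adgrg1 (0.83) and Serf1 for Adgrg2 (0.74). Adgrd1 reached that mean only through the Nav-Tsc2 mice, its control mean being 2.07 CPM. These are the highest of 8450 values each, and the libraries share mice and depth. Among the 15 pairs of these receptors r lay between -0.41 and 0.34 with a median of -0.05.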

How the data were processed

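Per the labels and the study's methods, RNA from sorted cells was amplified with the SMARTer Ultra Low kit and sequenced in single reads without molecular identifiers. The authors checked reads with FastQC, aligned them to mm10 with STAR and counted them per gene with HTSeq. The authors deposited these raw count values, 1 per gene and library. Tool versions, the annotation release and the strand setting were not given in the sources used here. Reads with no gene assigned made up 47.6% to 51.5% of HTSeq's totals in control and 49.0% to 55.9% in Nav-Tsc2 libraries and were left out. A further table of the authors with fold changes, p-values and normalized values was not used.

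Of 47643 identifiers, 47224 matched a symbol of GENCODE M21 (GRCm38). The 3 libraries of each mouse were added together and tested with edgeR 4.0.16 (R 4.3.3): filterByExpr, TMM scaling and the quasi-likelihood test, with Benjamini-Hochberg adjustment over all 17178 genes. The test was tried on simulated data. CPM per kb used the union of exons. Amplified reads are not independent molecules, so errors are given between mice. No 2 libraries held identical counts.

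The receptors and gene lists (other family genes, partners, signalling genes and cell type markers) were chosen with earlier results of these data known. The genes named are the 9 receptors, every called gene and the 3 with the highest level per length in each list, Tsc2, the markers and, for each receptor of at least 10 CPM, the gene most like it. Further list genes named beside a receptor as its partners, and Arhgef12, Gnai3 and Adgre1, were chosen after their values were seen. Some genes that meet the rule are not reported here.

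Alternatives were DESeq2 1.42.0, its size factors in edgeR, scaling by the upper quartile, keeping genes of low counts, sex or the replicate number as a further term, a fit of single libraries (24) in which mouse was a random effect (limma 3.58.1, consensus correlation 0.0785), other thresholds and leaving out each mouse. A check on 8445 genes asked whether the replicate numbers paired the mice. Deviations from the genotype means of same-numbered mice correlated at 0.184, 0.185, 0.108 and 0.199 with edgeR's prior count of 2 and at 0.131, 0.144, 0.0604 and 0.151 with a prior count of 10, while Spearman's rho was 0.0043, 0.0602, -0.0801 and 0.0359, and same-sex mice of unequal number had like values. Whether the numbers pair the mice is therefore not settled. Pearson's r at the first setting passed the limit of 0.1, so the blocked result is given where it changes a call.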

Additional observations from a re-analysis of the deposited data

Results flagged for a closer look

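In 4 of 54 groups of 4 mice, 1 mouse lay far from the other 3 by Dixon's test, where chance gives about 2.7. Adgrg1 had 147 CPM in control replicate 3, above the other controls. Adgrb2 had 0.271 CPM in Nav-Tsc2 replicate 4, from 16 counts. C1ql3 had 0.0181 CPM in control replicate 3, from 1 count, and with the other 3 controls at 0 any count there would have been flagged. Arrb1 had 165 CPM in Nav-Tsc2 replicate 4, below the other Nav-Tsc2 mice and above every control.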

How the results depend on the processing

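Of 119 log2 fold changes of the receptors in other fits, 118 stayed within the spread between replicates, 0 reversed among called genes and 1 moved, Adgrb1 to -0.76 without control replicate 3. Leaving out 1 mouse at a time gave 2 to 4 family genes lower and 1 to 2 higher, 4 to 6 partner genes lower and 3 to 4 higher, and 0 to 1 signalling genes lower and 1 to 2 higher. With DESeq2, 8 partner genes were lower. With the replicate block, which treats same-numbered mice as pairs although that pairing is not settled, 0 signalling genes were lower. In that fit Celsr2, Tenm3 and Gnai1 lost their calls and Adgrg2 gained a call. With no fold change limit, 3 signalling genes were higher. The causes were not tested. The share of all genes called in each of these other fits is not reported here, so nothing about the lists is read from these counts. Adgrb1 and Adgrb2 are limited by depth, at no more than 80 and 26 counts per mouse.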
